A study of Mus musculus with 6 samples.

Results

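Mouse embryonic stem cells that lack THAP1 were set against cells homozygous for the missense allele Thap1 C54Y, to describe where the null allele went beyond the missense allele and where it fell short of it. The series holds 6 RNA sequencing libraries, and 4 of them are compared here. These are KO replicates 1 and 2, whose genotype the labels give as THAP1 -/- with deletion of exon 2, and C54Y replicates 1 and 2. The 2 wild-type libraries (WT) give the level from which each mutant is read, and they share the estimate of spread. All 3 genotypes are embryonic stem cells of C57Bl/6 blastocyst origin, cultured over gelatin and irradiated fibroblast feeders in serum with LIF at 1000 units per ml. Libraries were paired by replicate number. Neither what that number marks nor whether libraries of a genotype came from separate cultures or clones is given in the labels, so the p-values measure the spread between these libraries, which may be technical. Of 19713 genes in the table, 15287 reached a value of 10 in at least 2 of the 6 libraries and were tested.

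THAP1 is a zinc finger transcription factor. It binds DNA through a THAP domain folded around a zinc ion, and the cysteine replaced in C54Y is among the residues that hold that ion. Mutations in the human gene cause the movement disorder DYT6 dystonia, by missense changes in the DNA-binding domain as well as by loss of the protein. Mouse embryonic stem cells in serum and LIF hold a mixture of naive cells, kept by factors such as Nanog, Klf4 and Esrrb, and cells that have begun to express genes of the formative state or of early lineages.

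The libraries held 31774656 to 46772996 reads and 17061 to 18481 genes with reads. Values are normalized read counts, that is reads divided by a size factor for the library, so they compare a gene across libraries but not gene with gene. More than 2-fold separated KO from C54Y in 10.4% of tested genes in replicate 1 and 6.22% in replicate 2. Replicate 2 differed from replicate 1 by that much in 37.2% of genes for WT, 37.6% for C54Y and 42.8% for KO. The median log2 difference, KO minus C54Y, over all tested genes was 0.03, with 0.09 in replicate 1 and -0.01 in replicate 2. All log2 differences below are of the value plus 2.

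Thap1 was not called between the mutants. Its values were 433 and 701 in WT replicates 1 and 2, 2253 and 2533 in C54Y, and 1975 and 1687 in KO. Both mutants stood above both WT libraries, and the KO to C54Y difference was -0.39 ± 0.22 (SE) on the log2 scale (adjusted p = 0.431). That value rests on which KO library is used: it was -0.72 and called (adjusted p = 0.0099) without KO replicate 1, and -0.058 (adjusted p = 0.856) without KO replicate 2. Reads were counted over all of Thap1, which does not check the deleted exon. The 10 other tested THAP domain genes and partners included no gene called between the mutants. Shld1, a shieldin gene that acts in the choice of double-strand break repair, is listed under an older symbol. It stood at 235 and 494 in WT, at 23.1 and 41.6 in C54Y, against 31.3 and 90.4 in KO, low in both mutants, with KO 0.74 ± 0.30 above C54Y (adjusted p = 0.286).

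Between KO and C54Y, 29 genes passed an adjusted p of 0.05, 22 lower and 7 higher in KO. They make up 0.190% of the tested genes, with 0.144% lower and 0.0458% higher. All 29 differed in the same direction in both replicates. Of all tested genes, 33.3% were higher in KO in both replicates and 25.7% lower. The 29 were chosen by a fit on these same pairs, so their agreement in direction is no separate replication. In 24 of the 29 the KO libraries did not overlap the C54Y libraries. Such separation was seen in 17.5% of all tested genes (8.64% higher and 8.84% lower). Median differences were -2.32 for the lower genes (-2.77 in replicate 1 and -1.99 in replicate 2) and 1.31 for the higher genes (1.61 and 1.22). The lower genes were 1.97-fold to 9.05-fold below C54Y, and the higher ones 1.92-fold to 3.49-fold above it. At an unadjusted p under 0.05 the numbers were nearly even, 1154 genes higher (7.55%) and 1195 lower (7.82%).

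The count rests on the pairing and on few degrees of freedom. Without the replicate number as a block, limma called 0 genes (207 at an unadjusted p under 0.05), and with neither trend nor robust fitting 0 (2042). Without C54Y replicate 1 it called 7 genes, and without any other library from 80 (C54Y replicate 2) to 2831 (KO replicate 2). The 7, Enpp2, Fndc3c1, Grb10, Lrp2, Sema6a, Spon1 and Stmn4, were also the ones called whichever single library was left out.

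**Figure D1:**
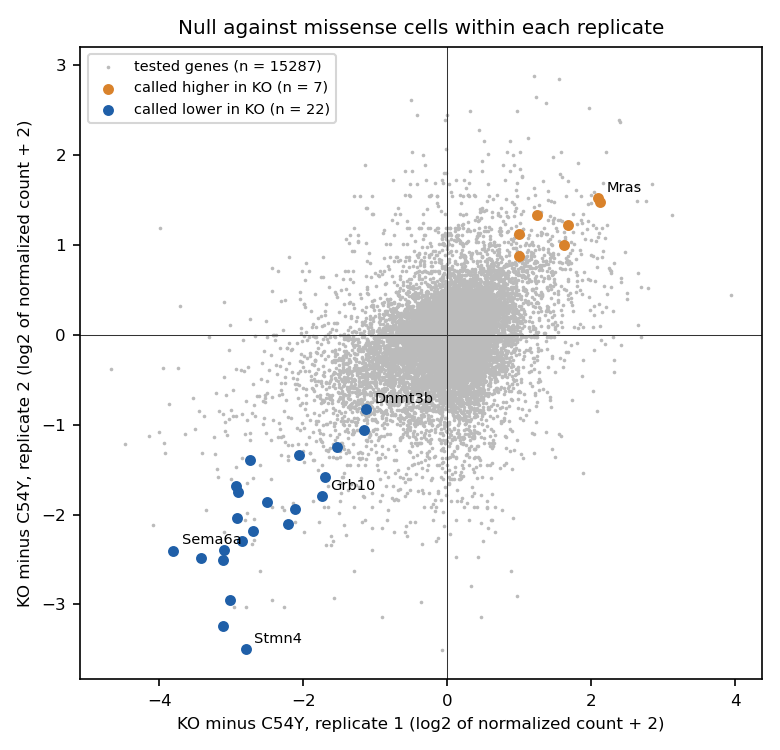
Log2 difference KO minus C54Y in replicate 1 (horizontal) and in replicate 2 (vertical) for each tested gene, with the 29 called genes marked by direction. The called genes, chosen by a fit over both replicates, lie in the lower left and upper right, 22 and 7 in number, with the same sign in both replicates.

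Sema6a, one of those 7 genes, encodes a transmembrane semaphorin that guides cells and axons. It measured 1847 and 613 in C54Y replicates 1 and 2 and 130.3 and 115 in KO, against 1947 and 1017 in WT. Both KO libraries lay below all others, and the KO to C54Y difference was -3.10 ± 0.30 (adjusted p = 0.0161). Spon1, which encodes the matrix protein F-spondin, measured 253 and 129.9 in C54Y, 21.7 and 21.6 in KO and 277 and 202 in WT. It was 7.74-fold lower in KO (log2 difference -2.95 ± 0.31, adjusted p = 0.0161), while C54Y differed from WT by -0.38 (adjusted p = 0.727). Enpp2 encodes autotaxin, the secreted enzyme that makes lysophosphatidic acid. Its values were 415 and 183 in C54Y, 55.6 and 35.6 in KO and 625 and 239 in WT, a difference of -2.58 ± 0.27 between the mutants (adjusted p = 0.0161). In bulk libraries, fewer cells of a type and less RNA per cell cannot be told apart.

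Lrp2 encodes megalin, an endocytic receptor of visceral endoderm and other absorptive epithelia. It measured 6855 and 1824 in C54Y, 911 and 541 in KO and 9841 and 3106 in WT. KO stood 5.03-fold below C54Y (-2.33 ± 0.25, adjusted p = 0.0161), and no KO library reached the lower C54Y library. Grb10 is an imprinted gene whose adaptor protein restrains insulin and IGF receptor signalling. It measured 6885 and 3865 in C54Y, 2059.6 and 1112 in KO and 7675 and 5985 in WT. The difference was nearly the same in the replicates, -1.74 and -1.79, and had the smallest p of all genes (-1.77 ± 0.17, adjusted p = 0.0161). Stmn4, a stathmin of the nervous system that binds tubulin, had 90.4 and 77.9 in C54Y, 11.3 and 5.09 in KO and 197 and 190.4 in WT. Its C54Y mean lay between WT and KO, as it did for 27 of the 29 called genes. The KO to C54Y difference for Stmn4 was -3.15 ± 0.34 (adjusted p = 0.0161). The Stmn4 step from WT to C54Y was -1.19 and was not called (adjusted p = 0.165). Fndc3c1, an X-linked gene for a fibronectin type III domain protein, measured 1038 and 116 in C54Y, 119 and 20.4 in KO and 1744 and 161 in WT. KO replicate 1 overlapped C54Y replicate 2, and the difference of -2.75 ± 0.28 was one within replicate pairs.

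Fgf5, Wnt3 and Shisa3 were among the lower genes. Fgf5, a growth factor that marks cells leaving the naive state, measured 112 and 105 in C54Y and 113 and 78.5 in WT, against 15.6 and 21.6 in KO. C54Y lay within 0.20 of WT (adjusted p = 0.895) and KO 2.44 ± 0.34 below C54Y (adjusted p = 0.0366). Wnt3, a Wnt ligand needed to form the primitive streak, had 165 and 48.1 in C54Y and 19.98 and 10.2 in KO, a difference of -2.48 ± 0.36 (adjusted p = 0.0479). Shisa3 belongs to a family that holds back Wnt and FGF receptors, and it measured 136 and 55.9 in C54Y and 27.8 and 11.5 in KO. The KO libraries lay below the C54Y libraries for all these genes.

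The other lower genes were measured as follows. Efnb2, the guidance ligand ephrin-B2, measured 779 and 361 in C54Y and 186 and 141 in KO (-1.70 ± 0.23, adjusted p = 0.035). Prom1, the gene for the membrane protein CD133, measured 832 and 291 in C54Y and 107 and 89.1 in KO. Cd24a, a small surface glycoprotein, had 2349.9 and 865 in C54Y and 815 and 363 in KO. Gja1 encodes the gap junction protein connexin 43 and stood at 8908 and 3366 in C54Y, 3989.7 and 1609 in KO and 15105 and 6301 in WT. The missense cells were also called lower than WT for Gja1 (-0.83, adjusted p = 0.0209), the only gene of the 22 of which this was true, and its KO and C54Y libraries overlapped. Prtg, an immunoglobulin superfamily protein of the early embryo, had 2965 and 423 in C54Y and 442 and 160.4 in KO, so that its groups overlapped. Cd109, whose product binds TGF-beta, had 302 and 122 in C54Y and 91.2 and 39.5 in KO. Mmp25, a membrane-anchored matrix metalloproteinase, had 326 and 157 in C54Y and 55.6 and 42.0 in KO. St8sia2 makes the polysialic acid of neural cell adhesion molecules and had 105 and 45.5 in C54Y and 10.4 and 6.36 in KO. Mcoln3, a cation channel of endolysosomes, had 154 and 23.4 in C54Y and 17.4 and 1.27 in KO.

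Dnmt3b, also lower, encodes a de novo DNA methyltransferase. It measured 11103 and 17997 in C54Y, 5063 and 10158 in KO and 12029.6 and 26674 in WT. This was the mildest of the lower changes, -0.98 ± 0.14 (adjusted p = 0.0455), and both KO libraries lay below the C54Y libraries. Sp8, a zinc finger factor of limb and neural development, had 53.04 and 16.9 in C54Y, 4.34 and 0.00 in KO and 64.2 and 34.7 in WT. The value of 9.05-fold for Sp8 rests on a handful of KO reads and on the constant of 2 added to each value. The transcript C530008M17Rik had 292 and 147 in C54Y, 275 and 154 in WT and 66.0 and 36.9 in KO.

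The 7 genes higher in KO were Mras, Myo1f, Inhbb, Krt17, Laptm5, Mid1 and E130012A19Rik. None of these 7 is among the genes that stayed called whichever single library was left out. Mras encodes a Ras-family GTPase that helps to activate the RAF and ERK kinases. It measured 351 and 618 in C54Y, 1501 and 1774 in KO and 233 and 347 in WT, the largest difference among these genes (3.49-fold, 1.80 ± 0.20, adjusted p = 0.0161). Myo1f, an unconventional myosin best known from immune cells, measured 325 and 960.0 in C54Y, 1415 and 2682 in KO and 139.7 and 389.9 in WT. It was higher in C54Y than in WT (1.25, adjusted p = 0.0272) and higher again in KO than in C54Y (1.80 ± 0.21, adjusted p = 0.0178). Inhbb, the activin B subunit of the TGF-beta family, showed the same order with 505 and 449 in WT, 960.1 and 928 in C54Y, against 3059 and 2166 in KO. The step to C54Y was 0.98 (adjusted p = 0.0349) and the step from C54Y to KO 1.45 ± 0.18 (adjusted p = 0.0208). Krt17, a keratin, measured 261 and 668 in WT, 555 and 2030.4 in C54Y, against 1703 and 4060.3 in KO, and KO replicate 1 overlapped C54Y replicate 2.

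Laptm5, a lysosomal membrane protein of blood cells, measured 2104 and 2918 in C54Y, 5009.5 and 7374 in KO and 1622 and 2022 in WT. Its difference was alike in the replicates, 1.25 and 1.34 (1.29 ± 0.14 in all, adjusted p = 0.0161). Mid1, an X-linked ubiquitin ligase gene, had 1639.7 and 1731 in WT, 1963 and 1594 in C54Y, against 3920.2 and 3477 in KO. The missense cells lay within 0.07 of WT (adjusted p = 0.925) and KO 1.06 ± 0.15 above them (adjusted p = 0.0479). This call is fragile, as Mid1 was called in 4 of 10 other settings with the replicate block. It was not called by edgeR (adjusted p = 0.0521) or by limma after TMM scaling (adjusted p = 0.0548). E130012A19Rik had 4509 and 12359 in C54Y and 9020.0 and 22742 in KO, a 1.92-fold difference, with its groups overlapping.

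**Figure D2:**
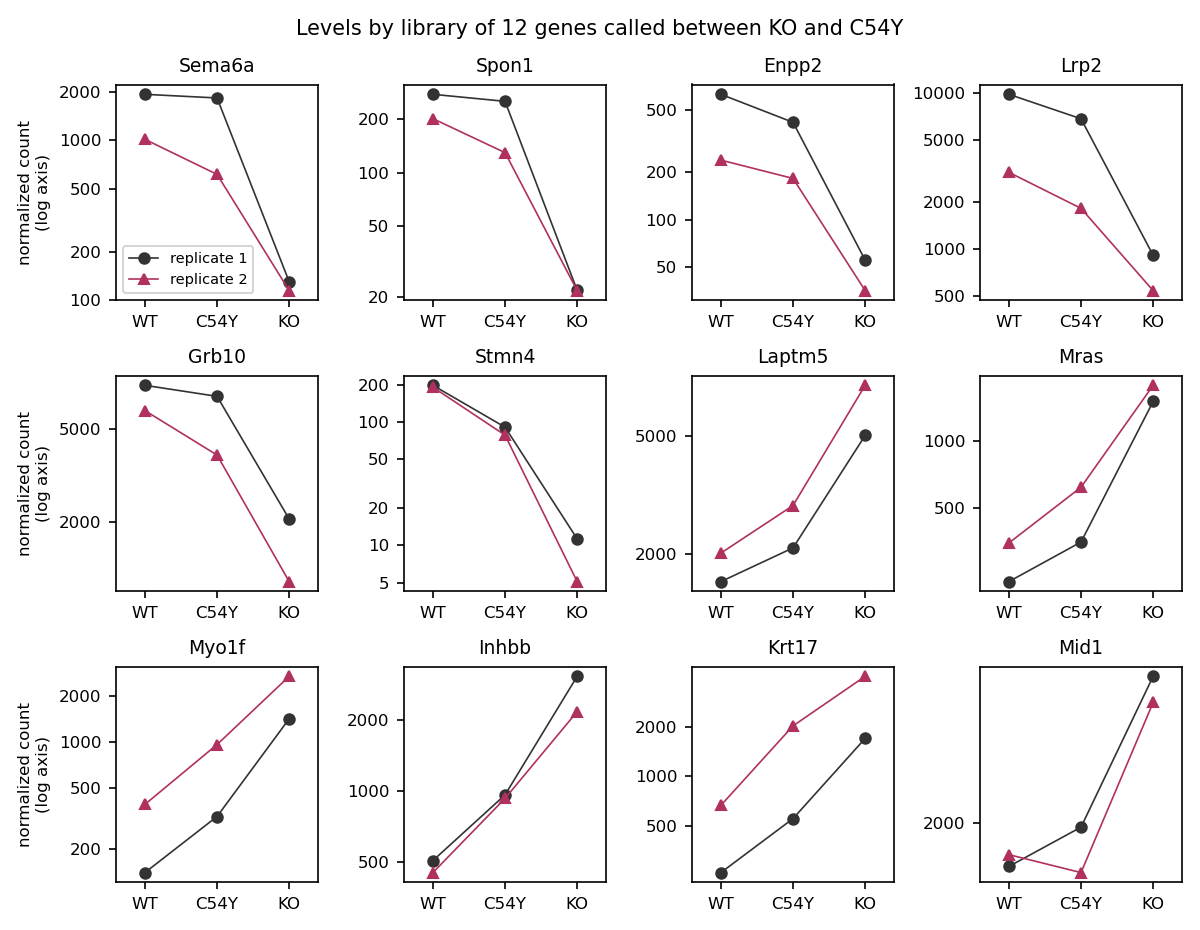
Normalized read counts on log axes that differ between panels, for 12 called genes in WT, C54Y and KO, with circles for replicate 1, triangles for replicate 2 and lines joining libraries of the same number. Sema6a, Spon1 and Enpp2 drop mainly between C54Y and KO, while Myo1f and Inhbb stand higher at each step.

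RefSeq promoter windows of the called genes were read for the published THAP1 recognition motif, because these genes differed together between the mutants. The motif is TNNGGGCA, searched on both strands in the 250 bases before each start. Windows were found for 20 of the 29 genes, and 5 of these held it, 4 of 5 higher genes (80.0%) and 1 of 15 lower genes (6.67%). Of all tested genes with a window, 1642 of 11306 did (14.5%), and of all windows 3900 of 32851 (11.9%). No test was made of these counts, and a match describes letters, not a bound site. The 5 stretches follow, 5′ to 3′ along the gene's strand in build GRCm38.p6, with the motif or its reverse complement in capitals. They are Inhbb at chr1:119422273-119422360 (minus strand), Laptm5 at chr4:130913201-130913288 (plus), Mid1 at chrX:169879460-169879547 (plus), Mmp25 at chr17:23645395-23645482 (minus) and Mras at chr9:99436784-99436871 (minus).
Inhbb: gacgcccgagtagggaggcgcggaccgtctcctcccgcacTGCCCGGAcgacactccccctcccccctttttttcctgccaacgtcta
Laptm5: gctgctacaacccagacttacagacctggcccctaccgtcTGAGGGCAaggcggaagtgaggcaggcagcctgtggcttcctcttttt
Mid1: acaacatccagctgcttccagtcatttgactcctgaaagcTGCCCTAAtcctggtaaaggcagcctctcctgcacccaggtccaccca
Mmp25: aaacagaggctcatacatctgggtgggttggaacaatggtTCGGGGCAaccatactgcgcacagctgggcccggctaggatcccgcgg
Mras: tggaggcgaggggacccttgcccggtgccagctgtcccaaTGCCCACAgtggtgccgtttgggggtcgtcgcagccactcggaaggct
Of these genes, Mmp25 is the one lower in KO. The matches in Laptm5 and Mmp25 read on the gene's own strand and the others on the opposite strand.

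Each called gene was then placed by the order of its 3 group means. In 27 of the 29 (93.1%) the C54Y mean lay between those of WT and KO, counted here as the null beyond the missense. In 25 of the 27 the order was the same in both replicates. The order does not show that C54Y differed from WT. For Mid1 and E130012A19Rik the C54Y mean lay 0.07 from WT (adjusted p = 0.925 and 0.898). In 0 of the 29 did KO lie between WT and C54Y. In the remaining pair, Fgf5 and C530008M17Rik, WT lay between, with C54Y within 0.20 and 0.01 of it. Neither gene kept that order in both replicates. C54Y lay between WT and KO for Fgf5 in replicate 1 and for C530008M17Rik in replicate 2. Over all tested genes the null was beyond the missense in 56.0%, short of it in 20.2% and on the opposite side of WT in 23.8%. Over the 2349 genes at an unadjusted p under 0.05 the shares were 73.5%, 1.06% and 25.5%. The groups share libraries, so these shares are a description, and the share of called genes ran from 65.5% to 100% when single libraries were left out. A gene can fall short only if C54Y differs from WT by more than KO differs from C54Y.

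The step from WT to C54Y was small in most of the 29. All 29 were called between KO and WT, where 16.3% of tested genes were called (8.90% higher and 7.41% lower). Only 4 of them, Myo1f, Gja1, Inhbb and Krt17, were called between C54Y and WT, where 1.36% were. The median of the 22 lower genes was -0.49 from WT to C54Y and -2.96 from WT to KO. For the 7 higher genes it was 0.71 and 2.43.

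**Figure D3:**
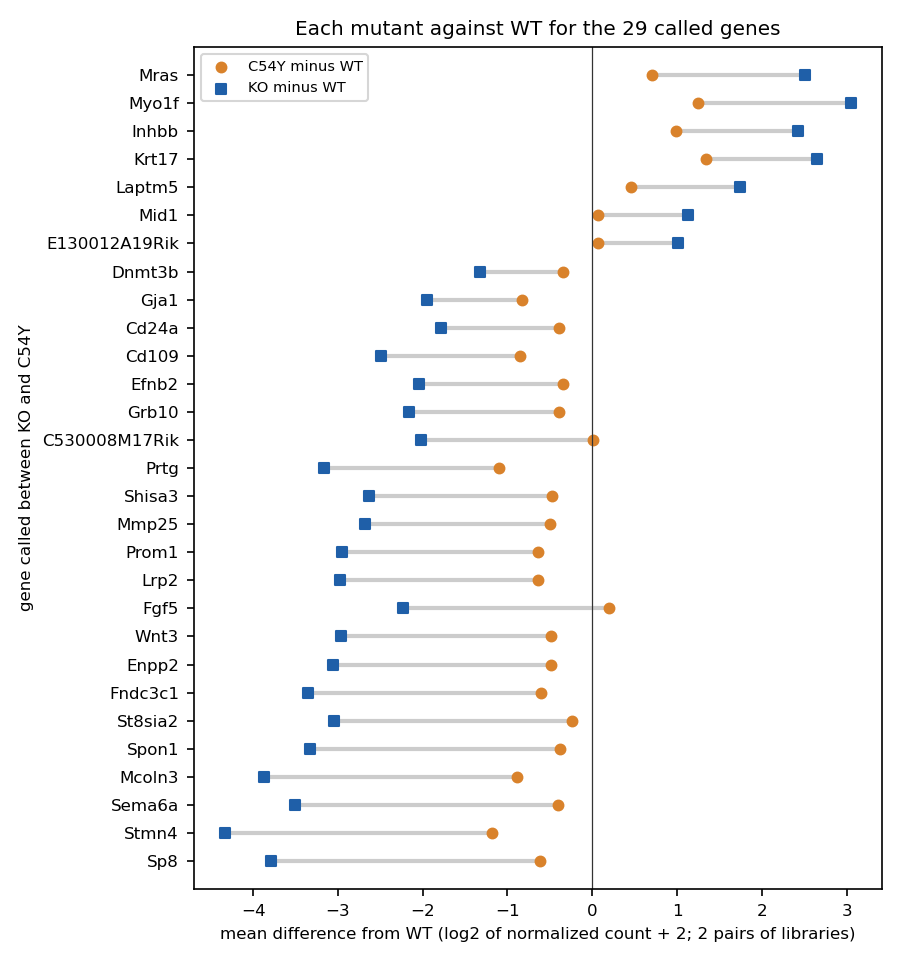
Mean log2 difference from WT of C54Y (circles) and KO (squares) for each of the 29 called genes, over the 2 replicate pairs, with the WT level at 0. The KO mark lies farther from 0 than the C54Y mark in every gene, and in Fgf5 and C530008M17Rik the C54Y mark lies on the other side of 0.

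No gene called between the mutants fell short, and 25 did so at an unadjusted p under 0.05, 13 of them in both replicates. The examples that follow were chosen after their values were seen, and none was called between KO and C54Y. Ech1, an enzyme of fatty acid oxidation, measured 1129 and 2519.5 in WT, 140.1 and 413 in C54Y, against 250.2 and 640.2 in KO. KO was 0.73 ± 0.19 above C54Y (adjusted p = 0.143), and both mutants were called below WT, by -2.80 and -2.07. Kbtbd11, a Kelch and BTB domain gene, stood at 16.4 and 18.02 in WT, 218 and 222 in C54Y, against 95.6 and 141 in KO. It differed from WT by 3.53 in C54Y and 2.62 in KO, with -0.91 ± 0.30 between the mutants (adjusted p = 0.204). Lama1, a laminin chain of basement membranes, had 8863 and 4097 in WT, 3118 and 1915 in C54Y, against 4531 and 2493 in KO. Psmb5, a catalytic proteasome subunit reported as a THAP1 target, was lower than WT by -0.83 in C54Y and -0.46 in KO, and KO was 0.37 ± 0.13 above C54Y (adjusted p = 0.240).

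Of the 208 genes called between C54Y and WT, 203 were also called between KO and WT, where 16.3% of all tested genes were. The 5 that were not were Otx2, Ntn1, Micu3, Ankrd33b and 6820431F20Rik. Otx2, a homeobox factor of the formative state, measured 672 and 741 in WT, 1170.2 and 1552 in C54Y, against 585 and 752 in KO. Only the missense cells were high, and KO was 1.02 ± 0.17 below them with an adjusted p of 0.0586, short of the threshold. Ntn1, the guidance cue netrin-1, had 1569 and 609 in WT, 853 and 310.5 in C54Y, against 1340.3 and 420.0 in KO (KO to C54Y 0.54 ± 0.18, adjusted p = 0.205). Of the 208, 88 differed between the mutants at an unadjusted p under 0.05, where 15.4% of all tested genes did. In 80 of the 88 the null was beyond the missense and in 7 short of it. Among all tested genes at that threshold these shares were 73.5% and 1.06%. The 147 genes called higher in C54Y than in WT (0.962% of tested genes) had a median of 1.79 in C54Y and 2.46 in KO. For the 61 called lower (0.399%) these were -1.79 and -2.03. The comparisons share their WT libraries.

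Pluripotency genes were described from lists, by counts beside those of all tested genes. At an unadjusted p under 0.05, 7.55% of all tested genes were higher in KO and 7.82% lower. The list counts at that threshold, here and below, are to be read beside these shares. In the naive list, 0 of 20 members were called, 12 were higher and 1 lower at an unadjusted p under 0.05, and 17 were higher in KO in both replicates, where 33.3% of all genes were. Their median was 0.48, against 0.03 for all genes, and 0.66 and 0.44 within the replicates. Klf4, a factor of the naive network, measured 3592 and 2379 in WT, 4541 and 3215 in C54Y, against 11306 and 5312 in KO (1.02 ± 0.17, adjusted p = 0.0586). Nr0b1, which restrains Pou5f1 activity, had 3005 and 3320.3 in C54Y and 5958 and 5514 in KO (0.86 ± 0.14, adjusted p = 0.0586). Esrrb, an orphan nuclear receptor of that network, had 18525 and 20245 in C54Y and 27149 and 31612 in KO. For these 3 genes both KO libraries stood above both C54Y libraries. That held for 9 of the 20 members and for 8.64% of all tested genes. C54Y lay between WT and KO in 18 of the 20, where it did in 56.0% of all tested genes.

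Of the core factors, 0 of 16 were called. Pou5f1 differed by 0.47 ± 0.10 (adjusted p = 0.0933), Nanog by 0.78 ± 0.17 (adjusted p = 0.0976) and Sox2 by 0.30 ± 0.14 (adjusted p = 0.350). These values moved with the setting and the library. Nanog was called by DESeq2 (adjusted p = 0.0128) and voom (adjusted p = 0.0456) with the block, and lay at 0.45 (adjusted p = 0.948) without C54Y replicate 1. Sox2 lay at 0.093 without KO replicate 1 (adjusted p = 0.721) and at 0.52, called, without KO replicate 2 (adjusted p = 0.00679). Pou5f1 lay between 0.36 and 0.59 and was called on leaving out either WT or either KO library, but not either C54Y library. Nanog measured 9895 and 7539 in WT, 12476 and 15219 in C54Y, against 26827 and 20998 in KO, an order seen in both replicates. Sox2 stood at 13974 and 11937 in C54Y and 19823 and 12842 in KO, with overlap. Cdh1, the E-cadherin gene, was one that lay lower, at 26189 and 17853 in C54Y and 15365 and 13954 in KO (adjusted p = 0.112).

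Formative and primed genes lay on the low side. Of 18, 2 were called lower (Fgf5 and Dnmt3b), where 0.144% of all genes were. At an unadjusted p under 0.05, 8 were lower and 2 higher, beside 7.82% and 7.55% of all genes. The median was -0.53. Pou3f1, a POU factor of the formative state, had 1269 and 1854 in WT, 939.7 and 1211 in C54Y, against 398 and 630.1 in KO (-1.09 ± 0.17, adjusted p = 0.0586). Etv4, an ETS factor, went the other way, with 2748 and 3958 in C54Y and 4824 and 6844 in KO (0.80 ± 0.17, adjusted p = 0.0887). Among DNA methylation genes 1 of 17 was called, Dnmt3b. Dnmt3a, the other de novo methyltransferase, measured 6432 and 12630.5 in C54Y and 4074 and 7517 in KO (-0.70 ± 0.16, adjusted p = 0.103). Their cofactor Dnmt3l was higher in KO, at 4901 and 19308 in C54Y and 9335 and 27804 in KO (0.73 ± 0.15, adjusted p = 0.0868).

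In the primitive and visceral endoderm list, 1 of 17 genes was called (Lrp2, lower), and 7 were lower and 0 higher at an unadjusted p under 0.05. The median was -0.35. Cubn encodes cubilin, the partner receptor of megalin, and measured 1625 and 760.5 in WT, 260.4 and 159.8 in C54Y, against 125 and 45.8 in KO (-1.40 ± 0.25, adjusted p = 0.0609). Dab2, the endocytic adaptor of both receptors, measured 1005 and 1053 in WT, 281 and 312 in C54Y, against 130.3 and 165 in KO (-1.001 ± 0.21, adjusted p = 0.0868). The step from WT to C54Y was -2.43 for Cubn and -1.79 for Dab2, both called, and -0.64 for Lrp2 (adjusted p = 0.323). The difference between these genes was not tested. The transcription factors of the lineage, Gata6, Sox17, Sox7 and Hnf4a, lay between -0.16 and 0.16 in KO against C54Y.

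Neural genes had the lowest median of the lineage lists, -0.95 over 13 members (-1.04 and -0.87 within the replicates), with 0 called and 7 lower and 2 higher at an unadjusted p under 0.05. Sox4, an SRY-box factor, had 1078 and 213 in C54Y and 372 and 111 in KO (-1.23 ± 0.22, adjusted p = 0.0609). Insm1, a zinc finger factor of neuroendocrine precursors, had 385 and 629 in WT, 164 and 139 in C54Y, against 26.1 and 68.7 in KO (-1.78 ± 0.36, adjusted p = 0.0826). Neural members went both ways, with 3 higher and 7 lower in KO in both replicates. The summed level over 16 neural genes was 17825 and 20278 in C54Y and 16795 and 23887 in KO, so it was higher in KO in replicate 2. The primitive streak and mesoderm list had 1 of 14 called, Wnt3, and a median of -0.63 (-0.99 and -0.16 within the replicates). Its members went both ways, with 4 higher and 6 lower in KO in both replicates, where 33.3% and 25.7% of all genes were. The summed level over 17 such genes was 1578 and 1800 in C54Y and 1767 and 2719 in KO. Trophectoderm genes had 0 of 15 called and a median of -0.56 that was -0.06 in replicate 2. Krt8 and Krt18, the simple epithelial keratins, differed by -2.63 and -2.62 but varied widely between libraries. Krt8 had 8306 and 5184 in C54Y and 469 and 2371 in KO (adjusted p = 0.314).

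Feeder markers lay on the low side in KO as well. Of 27 tested, 0 were called and 18 were lower in both replicates, where 25.7% of all genes were. The list had a median of -0.56, with -0.92 within replicate 1 and -0.14 within replicate 2. The summed level over 28 fibroblast genes was 69298 in C54Y and 43207 in KO in replicate 1, and 99993 and 99251 in replicate 2. In WT it was 60623 and 85862. Of the tested markers 6 were lower and 1 higher at an unadjusted p under 0.05, and Lum was the only marker at 0 in any library. The muscle-type genes were the most uneven, with Cnn1 at 571 and 898 in C54Y and 37.4 and 526 in KO. The part of feeder cells in the lower genes was not tested.

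**Figure D4:**
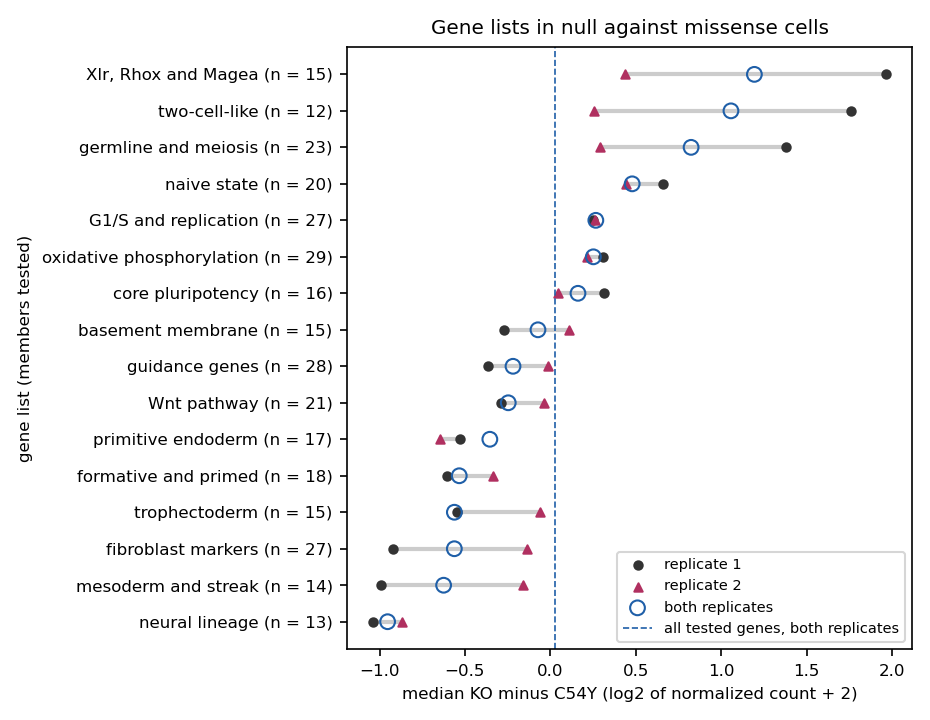
Median log2 difference KO minus C54Y of each gene list, as open circles, with the medians within replicate 1 (filled circles) and replicate 2 (triangles) and a dashed line at the median of all tested genes. Naive genes lie right of the median of all genes in both replicates and neural genes left of it, while 2-cell-like, germline and X-linked reproductive genes lie far right in replicate 1 and nearer to it in replicate 2.

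Germline genes, which promoter methylation keeps silent in most somatic cells, stood higher in KO chiefly in replicate 1. Of 23, 0 were called, and 10 were higher and 1 lower at an unadjusted p under 0.05, where 7.55% and 7.82% of all genes were. The median was 0.82 (1.38 and 0.29 within the replicates). Tex19.1, which protects germ cells from retrotransposons, measured 784 and 2723 in WT, 1201 and 4487 in C54Y, against 4135 and 8067 in KO (1.31 ± 0.22, adjusted p = 0.0586). Genes of the 2-cell-like state gave a median of 1.06 over 12 members, 1.76 in replicate 1 and 0.25 in replicate 2. The Xlr, Rhox and Magea genes of the X chromosome gave 1.19 over 15 members (1.97 and 0.44), with 8 higher at an unadjusted p under 0.05. Rhox13 had 29.9 and 77.9 in C54Y and 215 and 221 in KO (2.12 ± 0.38, adjusted p = 0.0609). Members of these multicopy families share sequence, so reads may be split between copies.

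Signalling lists held called genes in both directions. Of all tested genes, 7.55% were higher and 7.82% lower at an unadjusted p under 0.05. In the FGF and ERK list, 2 of 23 were called, Mras higher and Fgf5 lower, and 5 lay higher and 5 lower at an unadjusted p under 0.05. Among feedback genes of the pathway, the ERK phosphatase Dusp6 lay at -0.73 and Spry4 at 0.74, so the list had no common direction. In the Wnt list 1 of 21 was called, Wnt3, and 8 were lower and 3 higher at an unadjusted p under 0.05. Rnf43, a Wnt receptor antagonist that is also a target, had 75.5 and 37.7 in C54Y and 26.1 and 15.3 in KO (-1.33 ± 0.32, adjusted p = 0.117). Notum, a secreted enzyme that inactivates Wnt proteins, went the other way, with 248 and 486 in C54Y and 942 and 1017 in KO (1.49 ± 0.26, adjusted p = 0.0586). Inhbb was the 1 of 20 Nodal and BMP genes called. The guidance list had 2 of 28 called, Sema6a and Efnb2, both lower, beside 8 lower and 2 higher at an unadjusted p under 0.05. Sema5b, another semaphorin, had 256 and 161 in C54Y and 711 and 383 in KO (1.35 ± 0.23, adjusted p = 0.0586).

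Imprinted genes showed no common direction. Of 30, Grb10 alone was called, 6 were higher and 5 lower at an unadjusted p under 0.05, and the median was -0.03. Nnat, a small membrane protein of neurons, had 2620.4 and 3179.7 in WT, 1346 and 1200.3 in C54Y, against 430.0 and 826 in KO (-1.09 ± 0.24, adjusted p = 0.0976). Peg12 had 177 and 359.8 in C54Y and 471 and 619.9 in KO (1.09 ± 0.24, adjusted p = 0.0976). From WT to C54Y, Grb10 differed by -0.39 (adjusted p = 0.379) and Nnat by -1.18 (adjusted p = 0.0566). Neither step was called, and the steps were not tested against each other.

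Of the housekeeping lists, oxidative phosphorylation genes had a median of 0.25 over 29 members, with 0 called, 8 higher and 0 lower at an unadjusted p under 0.05, and 20 higher in both replicates. G1/S genes had a median of 0.27 over 27, with 0 called, 9 higher and 2 lower at an unadjusted p under 0.05, and 18 higher in both replicates. Of all genes, 33.3% were higher in both. Ribosomal protein genes lay at 0.10 over 28 and glycolysis genes at 0.11 over 26. In the proteasome list of 26, 0 were called, and the range ran from -2.65 to 0.43. Its lowest member, Psmb8, a subunit of the immunoproteasome, had 97.9 and 162 in C54Y and 7.82 and 40.7 in KO (adjusted p = 0.0586). Of the p53 targets 0 of 20 were called (median 0.05), and of the lysosomal genes 0 of 29 (median -0.08). The other lists had 0 called among 18 double-strand break repair genes, 24 genes of the endoplasmic reticulum and ATF4 response, 19 genes of the X-inactivation centre and X dosage, and 8 reported THAP1 targets. The basement membrane list of 15 includes Sema6a, the transmembrane semaphorin described above, and this was its only called gene. None of its laminin or collagen IV genes was called. Rrm1, a ribonucleotide reductase subunit and reported THAP1 target, differed by 0.07 ± 0.13 (adjusted p = 0.840). Among 26 inherited dystonia genes 0 were called, with Thap1 itself in the list. Spr, which completes the synthesis of the dopamine cofactor tetrahydrobiopterin, had 1780.1 and 4826 in C54Y and 2758 and 7563 in KO (0.64 ± 0.14, adjusted p = 0.0922). Tubb4a, a beta tubulin, had 349 and 462 in C54Y and 110.3 and 309 in KO (-1.11 ± 0.27, adjusted p = 0.124).

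By chromosome, X-linked genes stood higher in KO in replicate 1. The median of 567 X-linked genes was 0.30, 0.58 in replicate 1 and 0.03 in replicate 2, and 25.0% were higher and 3.35% lower at an unadjusted p under 0.05. Without the Xlr, Rhox and Magea genes the median over 552 was also 0.30. Over the 567 genes the median was 0.25 from WT to C54Y and 0.59 from WT to KO, so the missense cells also stood above WT. The X chromosome gave 3.18% and 2.50% of reads in WT replicates 1 and 2, 3.50% and 3.30% in C54Y and 4.73% and 3.52% in KO. Xist, the RNA that coats an inactive X, had 410.0 and 18.2 in C54Y and 341 and 17.8 in KO (-0.15 ± 0.38, adjusted p = 0.896). Of X-linked genes 2 were called, Mid1 higher and Fndc3c1 lower.

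A pair of autosomes lay slightly lower in KO in both replicates. Chromosome 2 (1202 genes) had a median of -0.13 (-0.11 and -0.12), with 13.4% of genes lower and 2.33% higher at an unadjusted p under 0.05. Chromosome 8 (804 genes), which carries Thap1, had -0.10 (-0.16 and -0.05), with 14.9% lower and 2.61% higher. For chromosome 8 the missense cells stood 0.16 above WT in the median, and KO stood 0.06 above WT. On the other 17 autosomes the medians ran from -0.01 to 0.09, the share higher from 4.37% to 10.7% and the share lower from 4.88% to 8.90%. Kbtbd11 and Micu3 are on chromosome 8. Micu3 measured 228 and 25.7 in WT, 714 and 83.1 in C54Y, against 513 and 36.9 in KO, so KO lay between the others, as for Kbtbd11.

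**Figure D5:**
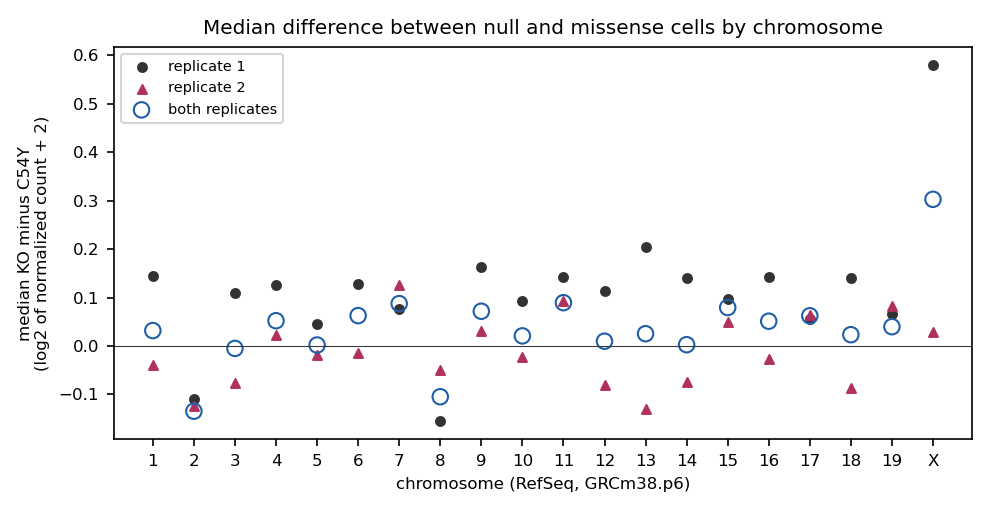
Median log2 difference KO minus C54Y of the tested genes of each chromosome, over both replicates and within each. The X chromosome lies at 0.58 in replicate 1 and 0.03 in replicate 2, and chromosomes 2 and 8 lie below 0 in both replicates.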

How the data were processed

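RNA was extracted with RNeasy columns and sequenced from TruSeq libraries, per the labels' protocols. Per the submitters' processing notes, CASAVA, Trimmomatic, TopHat2 2.1.0, HTSeq, DESeq2 and build mm9 were used by the authors. Strand setting, annotation and filters are not given in the sources used here. The deposited signal values are normalized counts, and all were whole multiples of a step per library (tolerance 1e-06), so whole reads were recovered for count tests.

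Differences were tested with limma 3.58.1 (R 4.3.3, robust trend) on log2 of the value plus 2 over all 6 libraries, with replicate number as a block and Benjamini-Hochberg adjustment over 15287 genes. Deviations from genotype means correlated at 0.895 (C54Y and KO), 0.907 (WT and C54Y) and 0.869 (WT and KO) between libraries of the same number, so the numbers pair the samples; this comes from the data, not from the labels. The block left 2 residual degrees of freedom and a median residual SD of 0.201, against 0.593 without it. Scripts were tested on simulated data. edgeR 4.0.16, DESeq2 1.42.0, voom, other pseudocounts, filters and scalings, and leaving out each library, were the alternatives. Library depth ranged from 31774656 to 46772996 reads.

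The comparison, gene lists and named genes were chosen with earlier results of these data known. The naming rule took fixed genes (Thap1, Shld1, Rrm1, Psmb5, Pou5f1, Sox2, Nanog, Spon1, Enpp2, Mras), the 12 largest called differences in each direction with a mean of at least 100 and separate libraries, the 8 smallest p in each class of the position of WT, the 5 called X-linked and autosomal genes with the smallest p, and up to 4 members of each list by p. The other called genes are named so that all 29 are accounted for. Symbols were matched to chromosomes for 15217 genes (99.5%) through RefSeq names of GRCm38.p6. Promoter sequences are RefSeq's for GRCm38.p6, not mm9.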

Additional observations from a re-analysis of the deposited data

How the results depend on the processing

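Between KO and C54Y, 29 genes were called. edgeR (6 higher, 23 lower) and limma after TMM scaling (5 and 24) also called 29, 27 of them shared. Pseudocounts of 0.5 and 8 gave 22 and 21, a minimum of 50 gave 21 and no filter 32. With the replicate block, DESeq2 called 452, voom 297 and the 4 mutant libraries alone 677. Dropping the replicate block left 0 by limma (207 at an unadjusted p under 0.05), 0 by edgeR (227), 3 by DESeq2 and 0 with 4 libraries (111). limma without trend and robust fitting called 0 (2042 at an unadjusted p under 0.05). Leaving out single libraries gave 7 (without C54Y replicate 1) to 2831 (without KO replicate 2), with 80 without C54Y replicate 2, 512 and 825 without WT replicates 2 and 1, and 913 without KO replicate 1. Leaving out a library leaves 1 in its group, which is assumed to vary like the others. The cause of these shifts was not tested. C54Y against WT gave 208 calls, 0 without the replicate block (limma and edgeR), 28 (DESeq2, no block), 479 (DESeq2, block), 4 without trend and 69 to 1818 on leaving out libraries. KO against WT gave 2494, 0 without the block (limma and edgeR), 235 (DESeq2, no block), 1433 without trend and 1749 to 4861. The share of called genes with the null beyond the missense was 93.1%, 100% of DESeq2's 3 calls without the block, and 65.5% to 100% on leaving out libraries.

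TMM scaling moved the median of all genes from 0.03 to -0.04. It put imprinted genes at -0.092, FGF and ERK -0.19, Nodal and BMP 0.13, p53 targets -0.011, G1/S 0.20, glycolysis 0.044, lysosome -0.14, dystonia -0.051 and ribosomal genes 0.035. Medians that moved in replicate 1 were reported targets 0.25, naive 0.66, endoderm -0.53, p53 targets 0.15, G1/S 0.25, glycolysis 0.17, lysosome -0.026, dystonia -0.079 and ribosomal 0.14. In replicate 2 they were THAP genes -0.23, formative -0.34, endoderm -0.64, trophectoderm -0.062, imprinted -0.10, FGF and ERK -0.047, Wnt -0.040, p53 targets 0.12, lysosome 0.029 and dystonia -0.089. Rrm1 turned to -0.023 (adjusted p = 0.939) without KO replicate 1.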

Other observations

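Below the threshold stood 40 genes with an adjusted p from 0.05 to under 0.06, 18 higher and 22 lower in KO, and 213 from 0.05 to under 0.1. The nearest was Car4, a membrane-bound carbonic anhydrase, at 2856 and 3586 in WT, 1613 and 2199 in C54Y, against 208 and 794 in KO (adjusted p = 0.0549). Car2 and Car3, of the same enzyme family, also lay lower in KO, Car2 at 1218 and 839 in C54Y and 367 and 461 in KO, and Car3 at 22.4 and 27.3 against 1.74 and 3.82. Bcl2, an inhibitor of apoptosis, had 143 and 44.2 in C54Y and 19.11 and 12.7 in KO. Apela, a peptide hormone of pluripotent cells, had 1386 and 734 in C54Y and 560.3 and 346 in KO. These genes were chosen after their values were seen, and none passed the threshold.

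Higher in KO were Ngfr, the p75 neurotrophin receptor, at 355 and 205 in WT, 613 and 524 in C54Y, against 1911 and 1073 in KO, and Mapt, the tau gene, at 515 and 561, 877 and 1374, and 2349 and 2431. Tfeb, a regulator of lysosomal genes, had 627 and 1267 in C54Y and 1351 and 2394 in KO, beside a lysosomal list with a median of -0.08. Khdc3, a maternal-effect gene, had 326 and 602 in WT, 747 and 2081 in C54Y, against 1964 and 4019.6 in KO, and was called in C54Y against WT (1.49, adjusted p = 0.00717). Each of these 4 genes had an adjusted p of 0.0586 between KO and C54Y, with C54Y between WT and KO.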
